A study of Homo sapiens with 4 samples.

Results

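The genes described here are 10 enzymes of the Golgi apparatus that trim and branch N-glycans, the sugar chains attached to asparagine residues of secreted and membrane proteins. They are the mannosidase genes MAN1A1, MAN1A2, MAN1C1, MAN2A1 and MAN2A2 and the N-acetylglucosaminyltransferase genes MGAT1, MGAT2, MGAT4A, MGAT4B and MGAT5, 10 of the 19775 genes that the platform annotation named. Every probe set given to exactly 1 of these genes was taken, 27 of 54613 probe sets. The family was picked because MAN1A1 had one of the largest differences between the cell lines of this series, so the differences between the lines are given for its members as a description, with no p-value.

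The arrays came from the human bladder cancer cell line UM-UC-3, an established line, which carried in stable form either GFP as the control or a fusion of GFP with RhoGDI2, the product of ARHGDIB. Both lines were sorted by fluorescence, and the labels give puromycin selection, with a cotransfected pBABE PURO plasmid, for the GFP cells. RNA was taken in log phase growth, with 2 arrays per group, from preparations A and B made at different times and paired across the groups. For the GFP-RhoGDI2 samples the free-text description is that of the control, while their titles, sources and growth protocols name the fusion. The labels do not say whether a line is 1 clone or whether the preparations go back to separate transfections, so differences that arose when a line was made cannot be told apart from those of the introduced gene.

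N-glycans reach the Golgi in a form rich in mannose. The class I mannosidases, encoded among others by MAN1A1, MAN1A2 and MAN1C1, remove mannose from it; MGAT1 then adds the N-acetylglucosamine that opens the way to complex glycans, the class II mannosidases MAN2A1 and MAN2A2 remove further mannose, and MGAT2 starts another branch. MGAT4A, MGAT4B and MGAT5 add the additional branches of highly branched glycans, which in cancer cells have been studied for their part in receptor retention, adhesion and invasion.

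Values are log2 RMA expression, already brought to a common level, with array medians from 4.624 to 4.647 and correlations across probe sets of 0.9958 within GFP, 0.9964 within GFP-RhoGDI2 and 0.9912 to 0.9923 between groups. The brightest ARHGDIB probe set was at 6.51 and 6.27 in GFP cells and at 11.94 and 11.58 in GFP-RhoGDI2 cells, high where the labels place the introduced gene. The remaining probe sets of that gene gave differences of 0.94 (adjusted p = 0.00794 by limma) and -0.02 (adjusted p = 0.953). Of 15 urothelial markers on the array, 7 were under the filter level of 4.637 on all 4 arrays (UPK1B, UPK2, UPK3A, KRT20, KRT19, EPCAM and CDH1), while UPK1A, UPK3B, GATA3, PPARG, KRT5, KRT7, KRT8 and KRT18 passed it on at least 1 array. Among markers of other cell types, 7 of 8 fibroblast, 6 of 7 endothelial and 6 of 8 blood and immune genes were under that level on all 4 arrays. Log2 levels summed over a list were 33.8 to 36.2 in GFP and 34.4 to 34.8 in GFP-RhoGDI2 for fibroblast, 27.7 to 28.1 and 27.0 to 27.6 for endothelial, and 31.5 to 32.1 and 31.2 to 32.0 for blood and immune genes. In these lists 0 of the 3 tested genes were called. Of the 5 tested urothelial markers, 1 was called higher and 2 lower in GFP-RhoGDI2, beside 4.83% and 3.35% of all tested genes. Log2 levels summed over the list were 76.2 to 77.5 in GFP and 75.6 to 76.8 in GFP-RhoGDI2, sums in which opposite changes can cancel. The part of these markers in the results below was not tested.

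For MAN1A1, MAN2A1 and MGAT2, the 3 genes for which every probe set separated the arrays of the lines without overlap and in the same direction, the 250 bases before the RefSeq start of transcription are shown, so that the promoter of the gene with the large difference can be set beside those of the smaller and opposite ones. The sequences are from RefSeq on GRCh38.p14, 5′ to 3′ on the strand of the gene, and capitals mark GC boxes (GGGCGG, or CCGCCC on the other strand) and CCAAT boxes (CCAAT, or ATTGG on the other strand).
MAN1A1, chr6:119349762-119350011, minus strand: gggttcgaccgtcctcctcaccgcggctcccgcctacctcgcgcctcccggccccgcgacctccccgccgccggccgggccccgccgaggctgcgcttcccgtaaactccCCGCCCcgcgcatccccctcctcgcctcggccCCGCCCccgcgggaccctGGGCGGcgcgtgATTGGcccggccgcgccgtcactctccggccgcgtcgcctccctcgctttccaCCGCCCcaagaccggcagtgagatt
MAN2A1, chr5:109689677-109689926, plus strand: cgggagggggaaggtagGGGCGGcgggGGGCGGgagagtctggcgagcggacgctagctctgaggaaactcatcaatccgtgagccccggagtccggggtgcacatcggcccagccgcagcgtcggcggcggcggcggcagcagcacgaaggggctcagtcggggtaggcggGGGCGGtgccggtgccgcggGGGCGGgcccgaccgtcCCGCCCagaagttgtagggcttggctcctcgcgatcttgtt
MGAT2, chr14:49620549-49620798, plus strand: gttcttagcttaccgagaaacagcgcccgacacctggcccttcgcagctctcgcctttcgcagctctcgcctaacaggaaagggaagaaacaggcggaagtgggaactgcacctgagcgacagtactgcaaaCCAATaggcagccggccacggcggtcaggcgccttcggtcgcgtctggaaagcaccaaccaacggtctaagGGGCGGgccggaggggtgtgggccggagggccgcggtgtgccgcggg

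All 3 windows were rich in G and C, at 78.4% for MAN1A1, 73.2% for MAN2A1 and 64.8% for MGAT2, against a median of 58.0% over the 35116 promoters of the table. MAN1A1 held 4 GC boxes and 1 CCAAT box, MAN2A1 held 5 GC boxes and no CCAAT box, and MGAT2 held 1 of each. At least 1 GC box stood in 42.6% of all promoters and a CCAAT box in 32.0%. None of the 3 windows held an E-box (CACGTG), an AP-1 site (TGANTCA) or a cyclic AMP response core motif (TGACGT, or ACGTCA on the other strand), motifs found in 6.34%, 6.57% and 7.10% of all promoters. Of the 10 genes, 8 were in the table, with 19 promoters, and 12 of the 19 promoters held a GC box. All 8 genes had a GC box in at least 1 of their listed promoters, a count per gene that cannot be set against the share of promoters. MAN1A2 and MGAT4A were not in the table. A match describes the letters only and was not tested as a binding site.

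MAN1A1, a class I mannosidase that trims mannose early in the Golgi, was far higher in the GFP-RhoGDI2 line on both of its probe sets. On probe set 221760_at the GFP arrays of preparations A and B read 4.16 and 4.34, and the GFP-RhoGDI2 arrays read 9.06 and 9.18. Both GFP values were under the filter level of 4.637 and both GFP-RhoGDI2 values far above it. The log2 difference was 4.87 (SE 0.0928), or 29.3-fold, with 4.91 in preparation A and 4.84 in preparation B. With values under the filter level raised to it, the difference was 4.48, since no detection call shows the GFP level to be above background, and the size of the fold change is therefore uncertain. Among the 12123 tested genes MAN1A1 ranked at place 2 by its difference, after ARHGDIB.

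The other MAN1A1 probe set, 208116_s_at, read 3.73 and 3.85 on the GFP arrays and 6.85 and 7.13 on the GFP-RhoGDI2 arrays. Here too the groups were far apart, with the GFP arrays under the filter level. Its log2 difference was 3.20 (SE 0.0977), with 3.12 and 3.28 in the pairs, and 2.35 with values under the filter level raised to it, so its size is uncertain too. The mean of both probe sets differed by 4.04. In RNA from a whole culture, more cells that express a gene and more of its RNA per cell cannot be told apart.

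**Figure D1:**
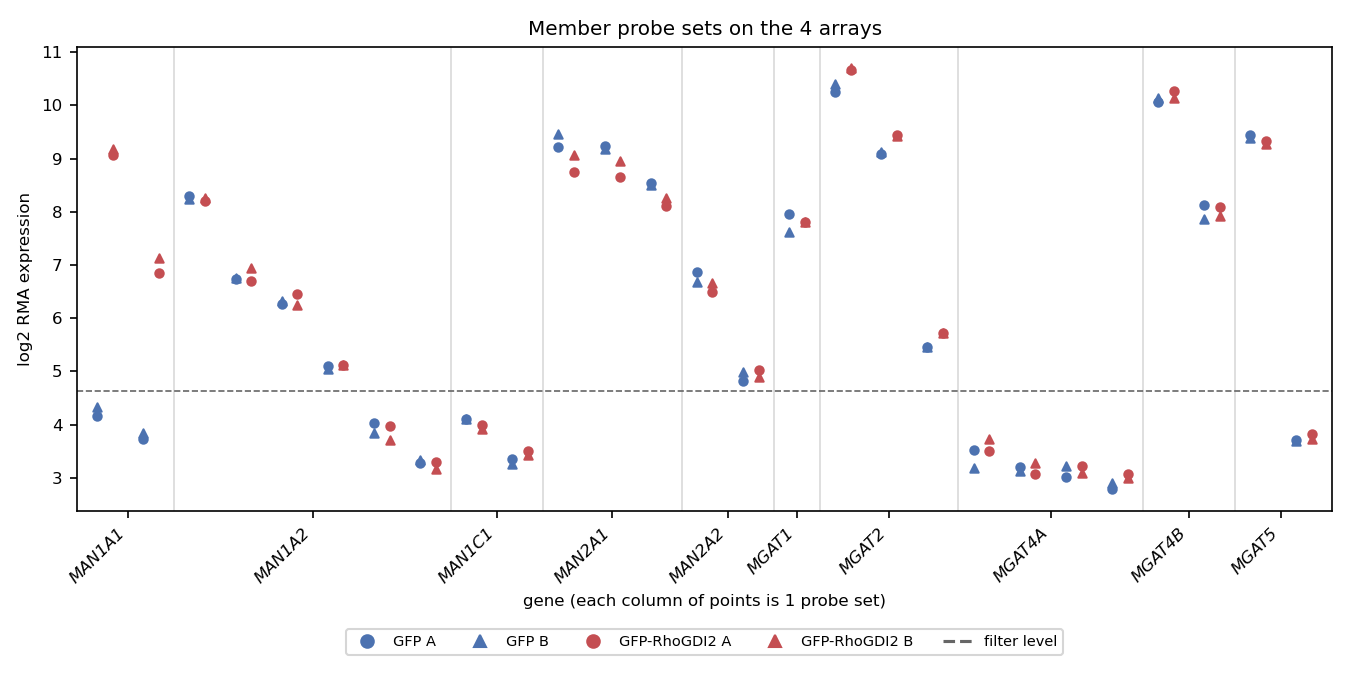
Log2 RMA expression (vertical axis) of the 27 member probe sets, grouped by gene along the horizontal axis; blue marks are GFP arrays, red marks GFP-RhoGDI2 arrays, circles preparation A, triangles preparation B, and the dashed line is the filter level of 4.637. Both MAN1A1 probe sets lie below the line on the GFP arrays and above it on the GFP-RhoGDI2 arrays, a step that no other member shows.

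The paralogue MAN1A2, which encodes another Golgi class I mannosidase, showed no such step. Its probe set with the highest mean, 217922_at, read 8.30 and 8.24 on the GFP arrays and 8.21 and 8.27 on the GFP-RhoGDI2 arrays. The groups overlapped, and the log2 difference was -0.03 (SE 0.0953). Over the 6 MAN1A2 probe sets the differences ran from -0.10 to 0.08, and 4 of the 6 passed the filter. MAN1C1, the remaining class I gene of the set, stayed under the filter level on both of its probe sets, with differences of -0.15 and 0.17 that have opposite signs and no test. MAN1C1 was therefore not shown to be expressed in either line.

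MAN2A1, the class II mannosidase that prunes mannose after MGAT1 has acted, was lower in the GFP-RhoGDI2 line on all 3 of its probe sets. Probe set 226538_at read 9.21 and 9.47 on the GFP arrays and 8.75 and 9.07 on the GFP-RhoGDI2 arrays. Probe set 205105_at read 9.24 and 9.19 against 8.66 and 8.95. Probe set 235103_at read 8.55 and 8.50 against 8.12 and 8.25. On each of the 3 the GFP-RhoGDI2 arrays lay below both GFP arrays, without overlap. The log2 differences were -0.43 (SE 0.0927), -0.41 (SE 0.117) and -0.34 (SE 0.0996). Within preparation A they were -0.46, -0.58 and -0.43, and within preparation B -0.39, -0.23 and -0.25.

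None of the 3 MAN2A1 probe sets passed the threshold of the fit with preparation as a block. All 3 passed it with an intensity trend in the variances or among probe sets above the upper quartile of mean values. So did 5721 of all 27307 tested probe sets with the trend and 3435 of 13654 with the quartile filter. In the fit with the block, 2085 of 27307 did. The other class II gene, MAN2A2, gave no common direction. Its probe set 202032_s_at read 6.88 and 6.68 on the GFP arrays and 6.50 and 6.65 on the GFP-RhoGDI2 arrays. The difference was -0.20 (SE 0.118), made up of -0.37 in preparation A and -0.02 in preparation B. Probe set 219999_at differed by 0.05 (SE 0.113), and its groups overlapped.

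Among the transferases, MGAT1, which starts every complex and hybrid N-glycan, was at similar levels in the lines. Its only probe set read 7.95 and 7.62 on the GFP arrays and 7.81 on both GFP-RhoGDI2 arrays. The GFP arrays lay on either side of the GFP-RhoGDI2 arrays, and the log2 difference was 0.02 (SE 0.116), with -0.15 in preparation A and 0.19 in preparation B.

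MGAT2, whose product starts the next branch after MGAT1 and the class II mannosidases have acted, was higher in the GFP-RhoGDI2 line on all 3 of its probe sets. Probe set 203102_s_at read 10.26 and 10.41 on the GFP arrays and 10.67 and 10.70 on the GFP-RhoGDI2 arrays. Probe set 211061_s_at read 9.09 and 9.12 against 9.44 and 9.43. Probe set 203101_s_at read 5.47 on both GFP arrays, where the deposited values are identical, and 5.73 and 5.72 on the GFP-RhoGDI2 arrays. No group overlapped on any of the 3. The log2 differences were 0.35 (SE 0.0946), 0.33 (SE 0.0921) and 0.26 (SE 0.0918), or 1.28-fold, 1.26-fold and 1.20-fold. All 3 carry identifiers of the class that can match several transcripts. None passed the threshold of the fit with the block; 203102_s_at and 211061_s_at passed it with an intensity trend or above the upper quartile of mean values.

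The enzymes of further branching differed little. MGAT5, the transferase behind a branch long studied in tumour cells, read 9.44 and 9.39 on the GFP arrays and 9.33 and 9.27 on the GFP-RhoGDI2 arrays with probe set 212098_at. The groups did not overlap, but the log2 difference was only -0.12 (SE 0.0918), with -0.11 and -0.13 in the pairs. Its other probe set, 206720_at, was under the filter level, with a difference of 0.08. MGAT4B, which adds another of the additional branches, read 10.07 and 10.14 against 10.28 and 10.15 on 224598_at. That is a difference of 0.11 (SE 0.101), and on 220189_s_at it was 0.01 (SE 0.094). MGAT4A, its paralogue, was under the filter level on all 4 of its probe sets and arrays, with differences from 0.02 to 0.27. Over MGAT4A and MAN1C1 the values ran from 2.78 to 4.11, so neither gene had a probe set that entered the test.

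**Figure D2:**
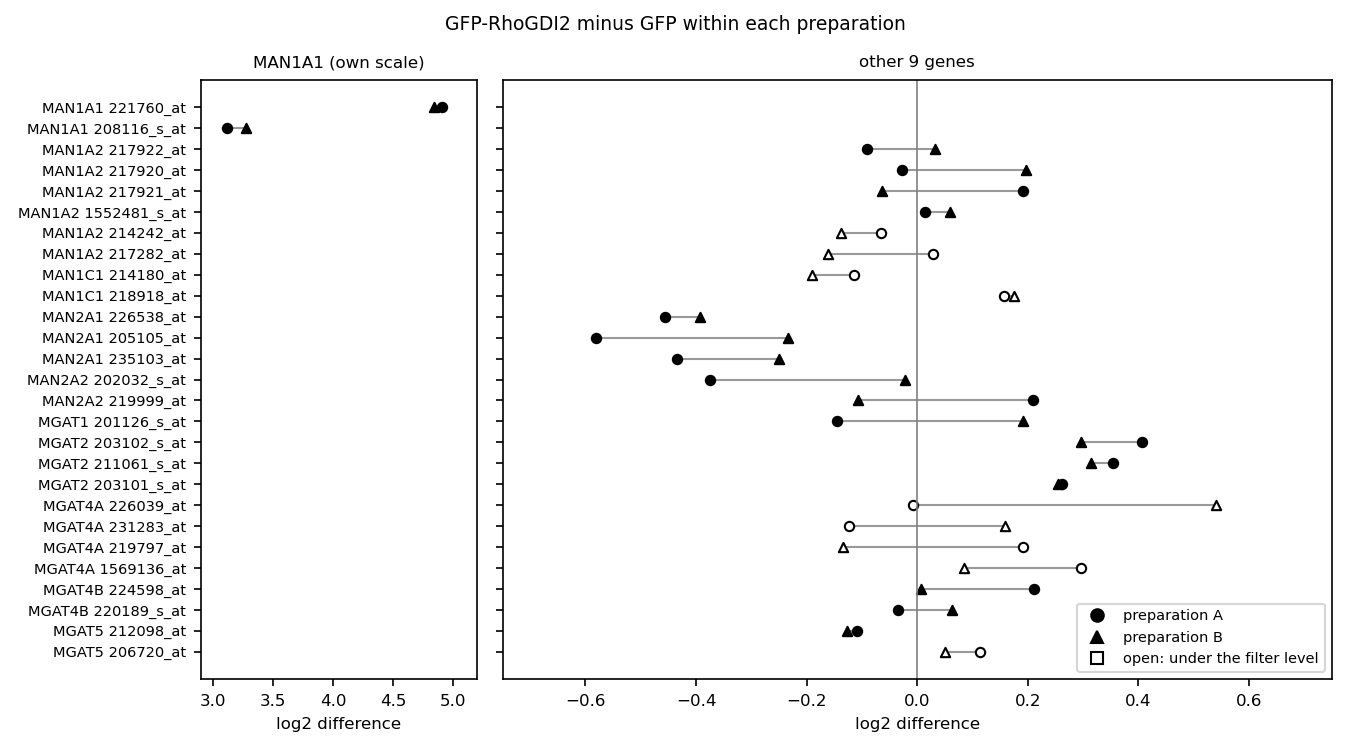
Log2 difference, GFP-RhoGDI2 minus GFP, within preparation A (circles) and B (triangles) for each of the 27 member probe sets, one per row; MAN1A1 has a horizontal scale of its own on the left, and open marks are probe sets under the filter level. The MAN1A1 pairs lie at 3.12 to 4.91, the MAN2A1 pairs all lie below 0 and the MGAT2 pairs all lie above 0.

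Of the 27 member probe sets, 18, from 8 genes, passed the filter on mean level, and both of MAN1A1 passed it only through the GFP-RhoGDI2 arrays, where they were high. In the fit, 2 of the 18 passed the threshold, both of MAN1A1 and both higher, while 7.64% of the 27307 tested probe sets did, 4.63% higher and 3.01% lower. Since the family was picked from this contrast, nothing is read from that count. The arrays of the lines did not overlap for 12 of the 18, 7 higher and 5 lower in GFP-RhoGDI2, against 52.1% of all tested probe sets, 25.0% higher and 27.2% lower. The 12 are the probe sets of MAN1A1, MAN2A1 and MGAT2 with 1 each of MAN1A2, MAN2A2, MGAT4B and MGAT5. The median log2 difference of the 18 was 0.04, beside -0.01 over all tested probe sets. The 16 without MAN1A1 ran from -0.43 to 0.35.

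The contrast between preparations, B minus A with the line in the model, was not used to pick the members. In limma, 0 of the 18 tested member probe sets were called at adjusted p under 0.05, as were 0% of all tested probe sets. At an unadjusted p under 0.05 there was 1 of 18 beside 11.4% of all. That probe set was 226538_at of MAN2A1, higher in preparation B by 0.29 (SE 0.0927, adjusted p = 0.401 by limma), in both lines. The MAN1A1 probe sets were higher in preparation B by 0.15 and 0.20 (adjusted p = 0.572 and 0.479). For the 18, B minus A ran from -0.21 to 0.29, and its median size was 0.07, beside 0.10 for all tested probe sets. The GFP values behind the MAN1A1 figures were under the filter level.

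Around MAN1A1 on its chromosome, 1 neighbouring gene was called higher and 1 lower. The 5 measured genes on either side, in the order of the RefSeq table, were BRD7P3, PLN, MCM9, ASF1A and FAM184A before it and TBC1D32, GJA1, SERINC1, PKIB and FABP7 after it, and 4 of the 10 passed the filter. GJA1, which encodes the gap junction protein connexin 43, read 8.16 and 8.14 on the GFP arrays and 10.63 and 10.67 on the GFP-RhoGDI2 arrays. It rose by 2.50 (SE 0.0926, adjusted p = 2.63e-04 by limma), or 5.64-fold, and its groups lay far apart. MCM9, a gene of DNA repair and replication, fell by 0.79 (adjusted p = 0.0113) on its probe set with the highest mean. Another MCM9 probe set differed by 0.06 (adjusted p = 0.759), and the call was lost with the mean of its probe sets (adjusted p = 0.0603). ASF1A, next but one to MAN1A1, differed by 0.04 (adjusted p = 0.838) and SERINC1 by 0.28 (adjusted p = 0.160). SERINC1 was called higher with an intensity trend (adjusted p = 0.00953) and in the fit on gene means of probe sets (adjusted p = 0.0419). It has 1 probe set, so its difference was the same 0.28 in both. Among all tested genes 8.17% were called, 4.83% higher and 3.35% lower. The nearest measured gene on either side, FAM184A and TBC1D32, stayed under the filter level on every array.

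**Figure D3:**
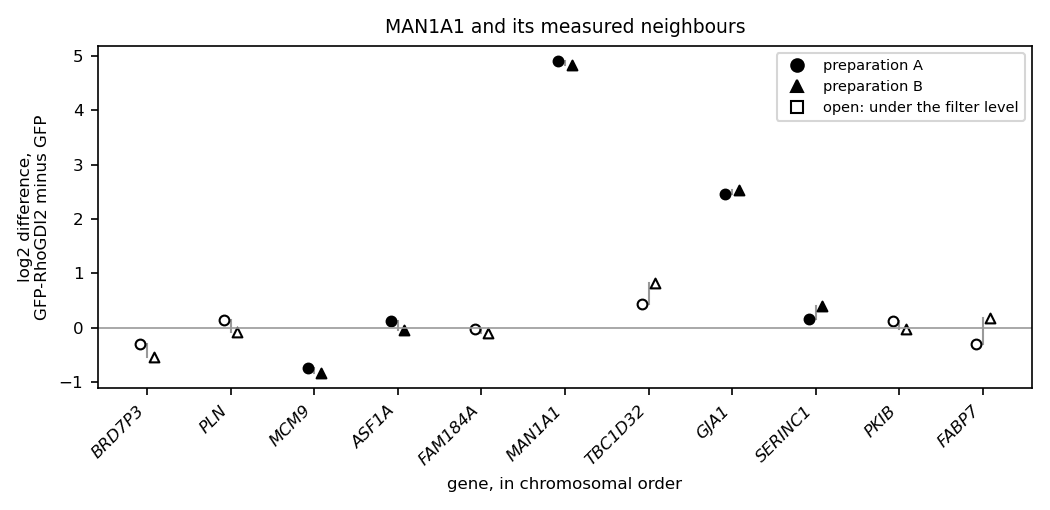
Log2 difference, GFP-RhoGDI2 minus GFP (vertical axis), of MAN1A1 and the 5 measured genes on either side in chromosomal order, with circles for preparation A, triangles for preparation B and open marks for genes under the filter level. MAN1A1 at 4.91 and 4.84 and GJA1, next but one to it, stand above the others. MCM9 lies below 0 in both preparations, as do BRD7P3 and FAM184A, which are under the filter level.

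The genes whose values over the 4 arrays lay nearest to those of MAN1A1, each centred on its own mean, were ARHGDIB, RNF182, SLC1A1, NEFL and DNER. Their root mean square distances were 0.33, 0.38, 0.40, 0.42 and 0.43 on the log2 scale. ARHGDIB, the introduced gene, differed by 5.37 between the lines and the other 4 by 4.07 to 4.12. With 4 arrays this likeness says only that the difference between the lines was of like size.

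The rest of the N-glycan pathway was looked at in 8 lists with 154 symbols, of which 135 were on the array and 124 passed the filter. Of the 124, 4 were called higher and 2 lower, 3.23% and 1.61%, beside 4.83% and 3.35% of all tested genes. The median log2 difference was 0.04, and -0.01 over all tested genes. The 6 called genes were 3 sialyltransferases, 1 gene of sugar supply and 2 lectins.

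Precursor assembly and the oligosaccharyltransferase, which build the glycan and put it on the protein, had 0 of 29 tested genes called, with differences from -0.43 to 0.34 and a median of 0.11. The list for trimming and quality control, mostly in the endoplasmic reticulum, had 0 of 20 called, with differences from -0.27 to 0.26. The remaining branching and core genes had 0 of 3 called, from -0.03 to 0.16. Lysosomal and cytosolic breakdown had 0 of 9 called, from -0.13 to 0.41, and Golgi tethering and pH 0 of 18, from -0.51 to 0.33. With an intensity trend 23 of the 124 pathway genes passed the threshold, while 5721 of all 27307 tested probe sets did. When the probe sets of a gene were averaged, 22 of 120 passed, and the share over all genes was not counted. The counts of 0 therefore hold for the fit given here.

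Among the capping enzymes, which finish the branches with galactose, sialic acid and fucose, 1 of 19 tested genes rose and 2 fell, with a median of -0.01. ST3GAL1, a sialyltransferase known mainly for O-glycans, read 7.70 and 7.16 on the GFP arrays and 6.10 and 5.78 on the GFP-RhoGDI2 arrays. It fell by 1.49 (SE 0.103, adjusted p = 0.00200 by limma), and its other probe sets fell by 0.67 and 0.79 (adjusted p = 0.0170 and 0.0105). ST3GAL5, which makes the ganglioside GM3 and so acts on lipids, read 6.49 and 6.36 against 7.48 and 7.83. It rose by 1.23 (SE 0.137, adjusted p = 0.00906), 2.35-fold. ST6GAL1, which does cap N-glycan branches with sialic acid, read 6.01 and 5.53 against 5.21 and 5.11. It fell by 0.61 (SE 0.121, adjusted p = 0.0422), a call that was lost without the preparation block (adjusted p = 0.0923) and with no filter (adjusted p = 0.0645).

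In sugar nucleotide supply, 1 of 19 tested genes rose and 0 fell, with a median of 0.02. PMM1, a phosphomannomutase, read 6.50 and 6.42 on the GFP arrays and 7.07 and 7.09 on the GFP-RhoGDI2 arrays, and rose by 0.62 (SE 0.0943, adjusted p = 0.0217 by limma). Of the 7 tested genes in the lectin list, 2 rose and 0 fell, with a median of 0.03. LGALS1, which encodes the galactose-binding galectin-1, read 12.96 and 12.75 against 13.64 and 13.50 and rose by 0.72 (SE 0.0929, adjusted p = 0.0145). MRC2, a receptor of the mannose receptor family known for taking up collagen, rose by 0.63 (SE 0.0936, adjusted p = 0.0205) on its probe set with the highest mean, while its other probe set differed by 0.09 (adjusted p = 0.696).

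In the fits without the block that leave out 1 array, ST3GAL5 kept its call in all 4. ST3GAL1 lost it without GFP-RhoGDI2 replicate B, at -1.33 (adjusted p = 0.0579). LGALS1 lost its call without GFP replicate B (adjusted p = 0.0729), GFP-RhoGDI2 replicate A (0.118) or GFP-RhoGDI2 replicate B (0.0854). ST6GAL1 lost it without GFP replicate A, at -0.37 (adjusted p = 0.245), GFP-RhoGDI2 replicate A (0.212) or GFP-RhoGDI2 replicate B (0.289). PMM1 and MRC2 lost theirs in each of the 4, with adjusted p of 0.0564 to 0.118 and 0.0592 to 0.155. MCM9 lost its call without GFP replicate B (0.0546), GFP-RhoGDI2 replicate A (0.0991) or GFP-RhoGDI2 replicate B (0.0692), and GJA1 kept its call in all 4.

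**Figure D4:**
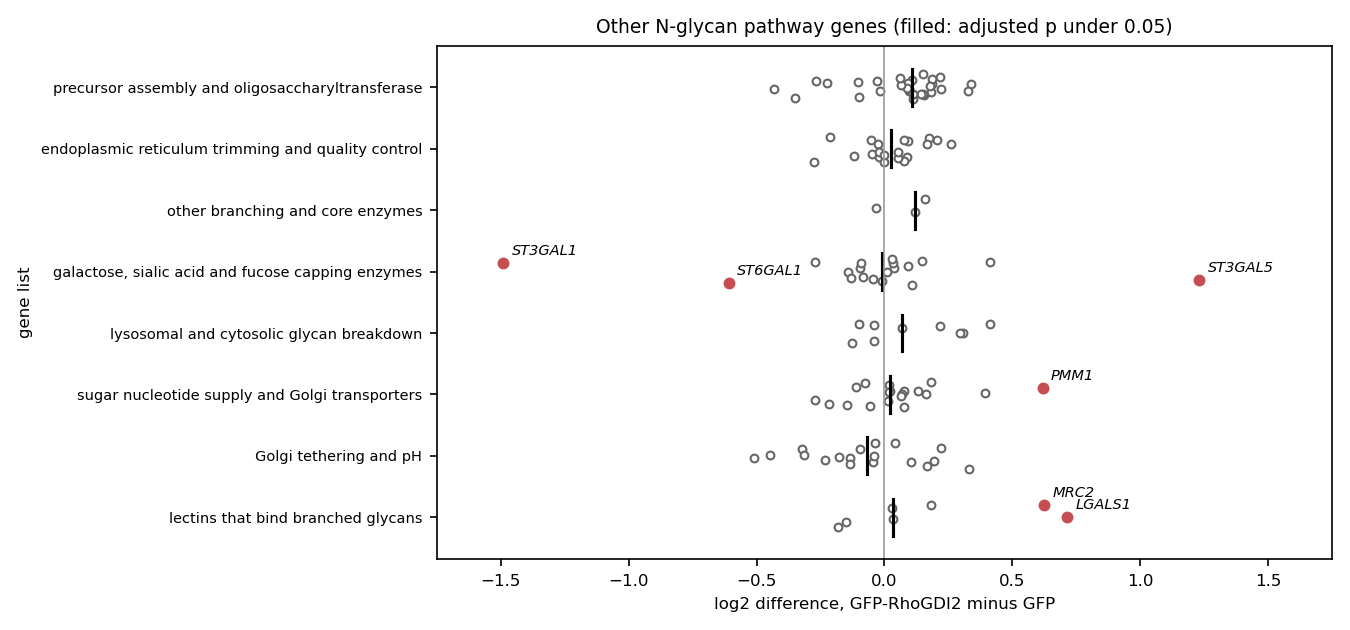
Log2 difference, GFP-RhoGDI2 minus GFP (horizontal axis), of the 124 tested genes in 8 lists of the N-glycan pathway; each point is a gene, filled points passed adjusted p under 0.05, and black bars are list medians. Most points lie near 0, and the 6 filled ones are ST3GAL1 and ST6GAL1 on the left and ST3GAL5, PMM1, MRC2 and LGALS1 on the right.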

How the data were processed

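Deposited were log2 expression values per probe set, which the authors made with RMA according to the submitters' processing notes. No software version is stated there. Per the labels, 6 µg of total RNA per sample were labelled with biotin as cRNA and hybridised to the Affymetrix HG-U133 Plus 2.0 array. The values were used with no further normalization. After removal of 62 controls from 54675 probe sets, the platform annotation gave a single gene to 41091 and several to 1801, and left 11721 unlisted.

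Tested were the 27307 probe sets whose mean reached the median mean of 4.637. limma 3.58.1 (R 4.3.3) was fitted to all 4 arrays, preparation being a block, with variances moderated over probe sets, Benjamini-Hochberg adjustment over the 27307 and calls at adjusted p under 0.05. There was 1 residual degree of freedom per probe set, and moderation added 4.71. The labels state the pairing, and same-lettered arrays deviated together (r = 0.264 across tested probe sets). Genes outside the family are represented by their brightest probe set. Precision is limited by the number of arrays, which carry no read depth. The code was tested on simulated data.

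The members and lists were chosen with earlier results of these data known. Named were all members, up to 4 called genes per pathway list, 5 measured neighbours on either side of MAN1A1, and the 5 genes nearest to it. MCM9 and GJA1 are such neighbours. The alternatives tried are given in the closing section.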

Additional observations from a re-analysis of the deposited data

How the results depend on the processing

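Without the replicate block, 2 member probe sets were called, as with it, while the count over all probe sets went from 2085 to 1284. Above the upper quartile of mean values, member calls numbered 5 of 10, beside 3435 of all 13654 probe sets tested there. These were of MAN2A1 and MGAT2 only, since MAN1A1 lies under that filter and gives no value there. With an intensity trend, member calls numbered 7 of 18 (2 more of MGAT2 and 3 of MAN2A1), beside 5721 of all 27307. With median centring they numbered 4 of 18 (2 of MAN2A1), beside 3395 of all 27307. Without s_at and x_at probe sets, 1 of 10 was called, and the share over all probe sets was not counted. A floor at the filter level gave 3 of 18, beside 2298 of all 27307. No filter gave 2 of 27, beside 1440 of all 54613. Robust moderation and quantile normalization gave 2 of 18 each, beside 2020 and 1786 of all 27307. Between preparations, 0 member probe sets were called under every alternative run on all 4 arrays. In the fit with the block, 0 of all 27307 were called too. Without the block, the line was not in the model of that contrast. The repeated 0 therefore says nothing further about the members. All probe sets called numbered 3435, 5721 and 3395 with the quartile filter, the trend and median centring, and 422 to 909 with 1 array left out. Pathway genes called went from 6 of 124 to 14 of 94, 23 of 124 and 10 of 124 in the same order. With the mean of probe sets, 22 of 120 were called, and the share over all genes was not counted. The MAN1A1 difference of 4.87 was 4.48 with the floor and 4.04 with the mean of probe sets. It was 4.78 to 4.96 with 1 array left out, in fits that also left out the block. No called value changed sign. The count of 1 follows from leaving out 208116_s_at of MAN1A1; the cause of the other shifts was not tested. The number of arrays and the lack of detection calls limit every low value.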
